A study of Mus musculus with 2 samples.

Results

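Accessible regions in the first introns of protein-coding genes were described in DNase-seq data from the left cerebral cortex of 2 mice. DNase-seq maps open chromatin by sequencing the places where the enzyme DNase I cuts DNA in nuclei. A region counted as a member when it was a peak in replicate 1 that overlapped a peak of replicate 2 by at least 1 bp, and when its centre lay over 1 kb from every annotated transcription start, outside all exons and inside the first intron of the longest transcript of a protein-coding gene. This gave 3455 of the 51642 regions of replicate 1 that replicate 2 shared (6.69%), and 3443 regions when the rows of replicate 2 were used. Both animals were female B6CASTF1/J mice aged 36 days, an F1 hybrid of C57BL/6J and CAST/EiJ, with 1 library each. The labels give them different animal numbers but 1 donor entry, and name no treatment or genetic change. They form a single group, so the comparisons below set classes of regions against each other within these 2 mice, and no p-value over animals exists. Intervals on shares are exact 95% Clopper-Pearson intervals and cover counting error only. Neighbouring regions of 1 intron are not independent of each other.

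First introns begin just after the first exon and are often the longest introns of a gene. They are known to hold enhancers, alternative promoters and sites of the insulator protein CTCF, and the part next to the first exon belongs to the open chromatin that surrounds an active promoter. Accessible intronic DNA marks where transcription factors displace nucleosomes, and a footprint is a short stretch inside such a region that was cut less than its surroundings, as under a bound protein.

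The shorter peak lists held 69208 rows in replicate 1 and 69128 rows in replicate 2, and 74.6% of the rows of replicate 1 were shared. The height of a peak is the authors' signal value with no stated unit, and the depth in reads is unknown. Among shared regions the height of replicate 2 was a median 0.761 times that of replicate 1, so heights are given per mouse. As a check of the tissue, 15 of 15 genes of excitatory neurons and 9 of 12 astrocyte genes had a peak within 1 kb of their start in both mice, against 1 of 15 liver genes and 6 of 16 skeletal muscle genes. Over all protein-coding genes this was the case for 13340 of 21938, so the astrocyte count lies near that background. Interneuron genes had such a peak in 7 of 15 cases, genes of the oligodendrocyte lineage in 6 of 15, microglial genes in 3 of 14, vessel genes in 7 of 16 and housekeeping genes in 15 of 15. Fewer cells of a type and less open chromatin per cell cannot be told apart in bulk tissue.

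The 3 highest members are examples from the top of the height range and not typical members. Their heights in replicate 1 were 10.9 to 13.0, against a median of 1.22 over all members. Below, each is printed 5′ to 3′ on the plus strand of mm10, with capitals for bases that lay in footprints of both mice. They are chr19:53314221-53314420 in the first intron of Mxi1, chr8:121585441-121585720 in that of the gene model Gm20388, and chr10:84438141-84438300 in that of Nuak1. The intron of Gm20388 holds the starts of 72 other protein-coding genes.
Mxi1: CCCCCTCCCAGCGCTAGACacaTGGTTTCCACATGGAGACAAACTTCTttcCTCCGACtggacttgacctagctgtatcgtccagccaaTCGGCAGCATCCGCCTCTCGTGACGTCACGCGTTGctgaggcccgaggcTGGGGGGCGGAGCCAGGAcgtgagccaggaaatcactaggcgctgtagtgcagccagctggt
Gm20388: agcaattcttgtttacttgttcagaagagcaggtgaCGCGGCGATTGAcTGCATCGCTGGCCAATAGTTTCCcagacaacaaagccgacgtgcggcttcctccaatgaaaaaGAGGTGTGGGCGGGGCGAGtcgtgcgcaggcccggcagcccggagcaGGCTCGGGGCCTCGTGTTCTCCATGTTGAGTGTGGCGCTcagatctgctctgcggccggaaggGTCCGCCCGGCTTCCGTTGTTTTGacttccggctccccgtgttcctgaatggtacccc
Nuak1: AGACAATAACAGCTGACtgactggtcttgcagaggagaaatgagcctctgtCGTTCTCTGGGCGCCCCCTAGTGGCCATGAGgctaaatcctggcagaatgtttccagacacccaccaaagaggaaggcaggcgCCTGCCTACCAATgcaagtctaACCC

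Capitals covered 105 of the 200 bases in Mxi1, which encodes a MAX-binding antagonist of Myc, 117 of 280 bases in Gm20388, and 65 of 160 bases in Nuak1, the gene of an AMPK-related kinase. The palindrome TGACGTCA, the cAMP response element, stands inside 1 of the capital runs of the Mxi1 region. A second set shows, in capitals, the match to 1 transcription factor motif in the highest member that has exactly 1 match of it. The same Nuak1 region carries the CTCF match, and the other regions are chr17:29095521-29095700 in Cdkn1a (AP-1), chr16:18229701-18229900 in Zdhhc8 (MEF2) and chr7:140080881-140081080 in Caly (the X-box of RFX factors), again on the plus strand of mm10.
Nuak1 with CTCF: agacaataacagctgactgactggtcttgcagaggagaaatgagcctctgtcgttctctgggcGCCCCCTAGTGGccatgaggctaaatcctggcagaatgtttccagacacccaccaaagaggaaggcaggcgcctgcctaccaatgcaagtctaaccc
Cdkn1a with AP-1: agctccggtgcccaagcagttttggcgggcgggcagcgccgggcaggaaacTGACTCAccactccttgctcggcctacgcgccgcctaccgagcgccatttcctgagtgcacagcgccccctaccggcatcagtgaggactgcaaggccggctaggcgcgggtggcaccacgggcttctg
Zdhhc8 with MEF2: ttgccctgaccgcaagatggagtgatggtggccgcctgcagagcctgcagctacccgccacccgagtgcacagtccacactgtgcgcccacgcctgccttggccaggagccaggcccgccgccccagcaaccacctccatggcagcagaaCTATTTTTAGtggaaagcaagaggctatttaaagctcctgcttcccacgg
Caly with RFX: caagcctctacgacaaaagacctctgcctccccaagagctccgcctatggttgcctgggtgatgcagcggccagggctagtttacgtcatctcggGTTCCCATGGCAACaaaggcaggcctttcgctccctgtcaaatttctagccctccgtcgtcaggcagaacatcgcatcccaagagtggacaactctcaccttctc

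The CTCF match of the Nuak1 region, on the minus strand, is also in capitals in the first printing of that region, so footprints of both mice covered it. The member of Zdhhc8, a palmitoyltransferase gene, had heights of 4.83 and 2.75 at 5.34 kb from the start, and that of Caly, which encodes the neuronal vesicle protein calcyon, had 4.05 and 3.38 at 1.57 kb. In these and all later pairs of heights the value of replicate 1 comes before that of replicate 2. These letters are those of the reference genome, and CAST/EiJ alleles were not analysed here.

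First introns held accessible regions more densely than later introns, and the excess lay near the start of the gene. Shared regions numbered 15.4 per Mb of eligible first-intron sequence (224 Mb) with the rows of replicate 1 and 15.4 per Mb with those of replicate 2. Later introns held 12.5 and 12.5 per Mb, and intergenic sequence 9.64 and 9.58 per Mb. When all peaks of each library were counted, the mean density was 23.7 ± 0.512 per Mb in first introns, against 19.3 ± 0.539 per Mb in later introns and 13.4 ± 0.451 per Mb in intergenic sequence (SD, n = 2 mice). The difference between the classes was several times the spread between the mice. Per Mb of sequence outside annotated repeats, shared regions numbered 21.8 in first introns, 17.8 in later introns and 17.0 in intergenic sequence.

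**Figure D1:**
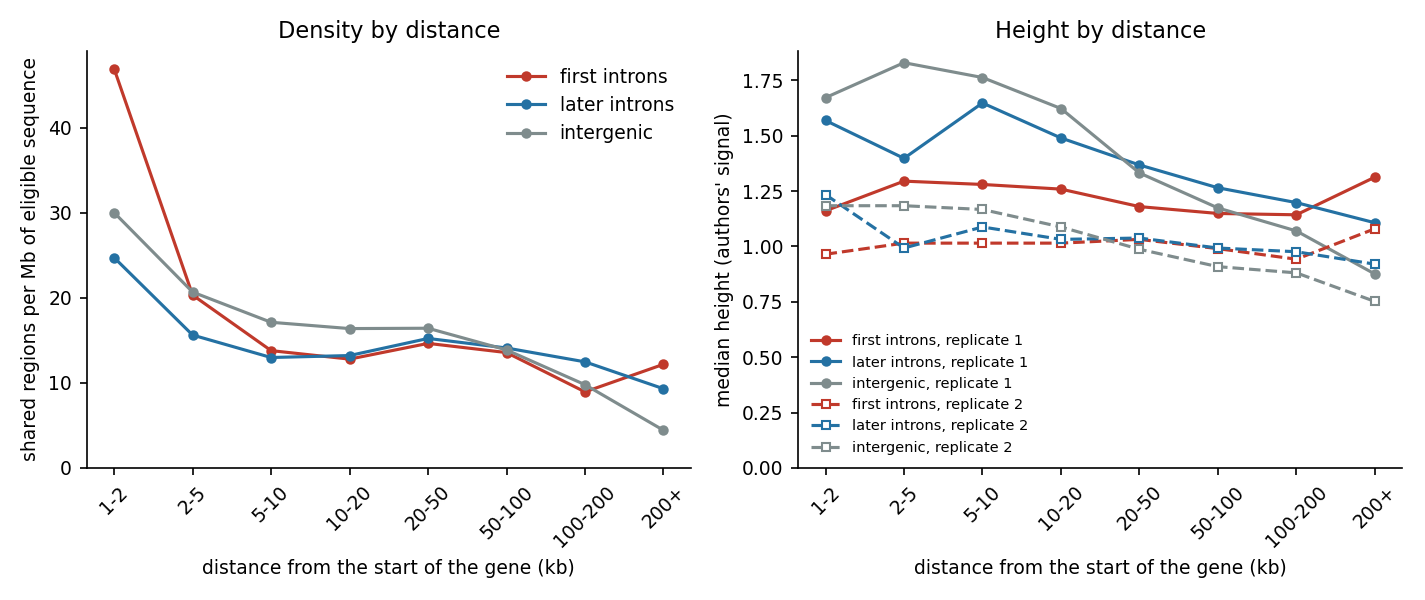
Left, shared regions per Mb of eligible sequence, and right, median height (authors' signal; filled circles replicate 1, open squares replicate 2), against distance from the start of the gene in kb, for first introns, later introns and intergenic sequence. First introns lead at 1 to 2 kb with 46.9 regions per Mb and lie close to later introns from 5 to 100 kb, while their median height stays between 1.14 and 1.31 in replicate 1.

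Density fell off with distance from the start of the host gene. At 1 to 2 kb, first introns held 46.9 regions per Mb, against 24.7 in later introns, which rest on 57 regions, and 30.0 in intergenic sequence upstream of a start. Densities in first introns were 20.3 per Mb at 2 to 5 kb and between 12.8 and 14.6 per Mb from 5 to 100 kb. Later introns held 13.0 to 15.2 per Mb over that range. From 5 to 100 kb the first intron thus held about as many regions per Mb as later introns at the same distance. At 100 to 200 kb the first intron held 8.93 per Mb and later introns 12.5. Beyond 200 kb it held 12.2 per Mb and later introns 9.30, or 6.57 and 9.25 without introns that hold the start of another protein-coding gene. The ratio of first to later introns was 1.65 ± 0.0106 at 1 to 5 kb, 1.00 ± 0.00518 at 5 to 20 kb, 0.970 ± 0.000606 at 20 to 100 kb and 0.997 ± 0.00118 beyond (SD over the rows of the 2 mice, which share their peaks by rule). The last value pools distances of 100 to 200 kb and beyond 200 kb, where the order of first and later introns was opposite.

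Against intergenic sequence, the order of the classes turned with distance. First introns were denser than upstream sequence at 1 to 5 kb (27.7 against 23.1 per Mb) and less dense at 5 to 20 kb (13.2 against 16.7 per Mb, a ratio of 0.794). Over all peaks of single libraries this last ratio was 0.960 to 0.974, and with the longer lists it was 1.04, so the direction at 5 to 20 kb depends on the peaks used. Beyond 100 kb first introns held 10.5 per Mb and intergenic sequence 5.61 per Mb. Introns of a few gene models span other genes, and leaving out the introns, first and later, that hold the start of another protein-coding gene (chosen after seeing the data) gave 15.1 per Mb in first introns and 12.5 per Mb in later introns over all distances. Beyond 100 kb the densities were then 7.63 per Mb in first introns and 10.5 per Mb in later introns, a ratio of 0.728.

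Members covered a wide range of distances. The median member lay 16.6 kb from the start of its host (quartiles 3.82 and 48.7 kb), and 993 members (28.7%) lay within 5 kb. The nearest lay 1003 bp away. At the 1 kb limit itself, the 295 members in the first 250 bp past it had median heights of 1.14 and 0.976, and the 422 first-intron regions in the last 250 bp before it, just outside the rule, had 1.10 and 0.945. First introns of 20 kb or more were cut into 10 equal parts. The part next to the first exon held 27.6 members per Mb (435 members), and the other parts held 10.1 to 14.6 per Mb. Height did not follow this profile, since the first of these parts had median heights of 1.11 and 0.926 and the last 1.27 and 1.01.

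Members were of middling height. Their median was 1.22 in replicate 1 and 1.01 in replicate 2, against 1.28 and 0.993 in later introns, 1.22 and 0.937 in intergenic sequence, and 2.21 and 1.65 at promoters. The order of first and later introns thus differed between the mice. Quartiles of the members were 0.870 and 1.91 in replicate 1 and 0.746 and 1.38 in replicate 2, within ranges of 0.122 to 13.5 and 0.129 to 8.51. High peaks were rarer among them than among intergenic regions in both mice: the 90th percentile was 3.08 and 1.92 in first introns, and 3.91 and 2.03 in intergenic sequence. Unlike density, height in first introns changed little with distance. Close to genes the members were lower than upstream regions: at 2 to 5 kb the median heights were 1.30 and 1.02 in first introns, against 1.83 and 1.18 upstream of a start. Later introns at that distance had 1.40 and 0.993, so their order with first introns differed between the mice. Intergenic heights declined to 0.876 beyond 200 kb, where the members had 1.31, or 1.03 without introns that hold other starts.

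The heights of the members were related between the mice about as closely as those of later-intron regions. Spearman's rank correlation over the 3455 members was 0.810, and 0.781 over the 7927 later-intron regions, as a description over regions that share libraries. Relative to all shared regions, the log2 ratio of replicate 2 over replicate 1 had a median of 0.10 among members (SD 0.49), 0.01 in later introns and -0.03 in intergenic sequence. A ratio beyond 1 on this scale, in either direction, was found for 159 members (4.602%), close to the 4.66% of all shared regions. Of these, 42 were higher in replicate 2 and 117 lower. Later introns had 6.91% and intergenic sequence 8.28%.

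**Figure D2:**
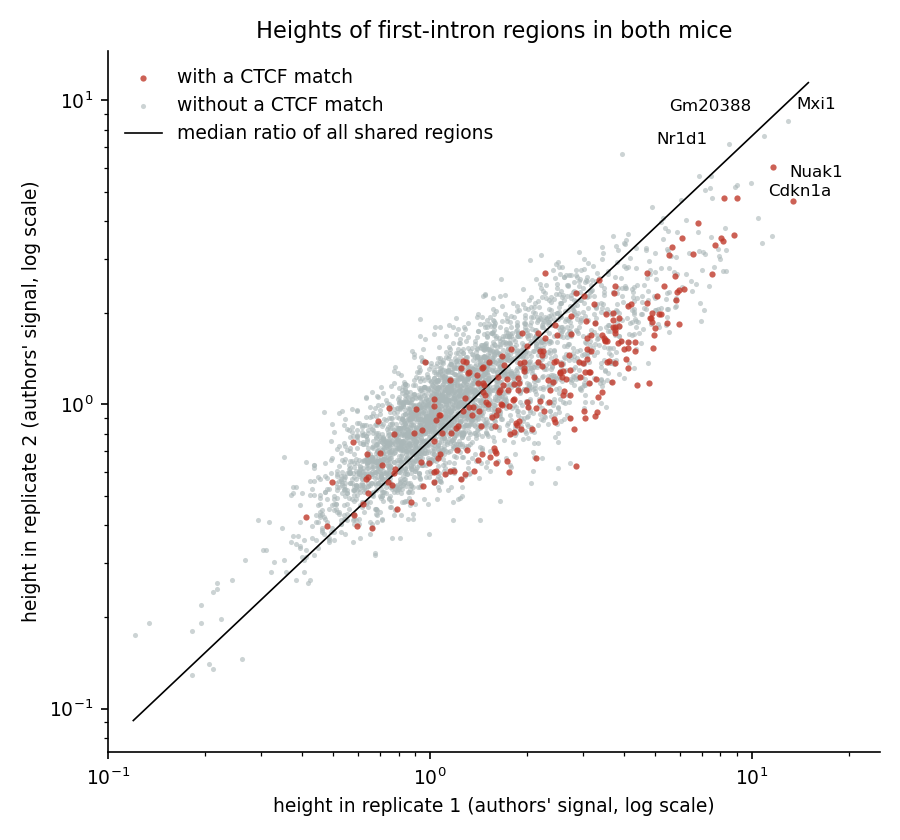
Height of each of the 3455 members in replicate 1 (horizontal axis) and replicate 2 (vertical axis), both the authors' signal on log scales, with members that hold a CTCF match in red, the others in grey, and a line at the median ratio of all shared regions. Most of the red points lie below the line: the ratio was under the median of all shared regions for 81.6% of members with a match and for 38.8% of those without.

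Members were close to later-intron and intergenic regions in GC content and repeat share, with a CpG-rich group near the start. They had a median width of 194 bp (quartiles 159 and 238 bp), against 180 bp in later introns and 180 bp in intergenic sequence. Median GC content was 54.2% in first introns, 52.5% in later introns and 52.2% in intergenic sequence. Annotated repeats covered 7.76%, 7.91% and 7.98% of the bases in the same order of classes. Of the eligible first-intron sequence as a whole, 158 of 224 Mb lay outside repeats. Regions with a GC content of at least 50% and an observed-to-expected CpG ratio of at least 0.6 numbered 374 members (10.8%), against 375 later-intron regions (4.73%) and 1295 intergenic regions (9.68%). Such CpG-rich stretches are typical of promoters, where 70.0% of regions met the criteria.

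Of the 374 CpG-rich members, 228 (61.0%) lay within 5 kb of the start of the host. Their share was 30.5% of members at 1 to 2 kb, 16.2% at 2 to 5 kb and between 4.29% and 8.42% further out. CpG-rich members had median heights of 1.44 and 1.13, and the other members 1.20 and 0.993. Intergenic CpG-rich regions were higher, with medians of 1.98 and 1.35. Footprints were found in 93.4% of members in replicate 1 and 91.6% in replicate 2, against 96.1% and 94.8% of later-intron regions. Members held 2.86 and 2.60 footprints each on average, 13.8 and 12.5 per kb, and later-intron regions 14.9 and 13.6 per kb. No footprint in either mouse was found for 117 members (3.39%).

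Matches to 21 transcription factor motifs were counted on both strands of the central 200 bp of each region. A match says that the letters are there, not that the factor binds, and matches of different motifs can overlap in position. The same windows centred on the starts of protein-coding genes serve as a background. The most frequent motif was CAGATG, the E-box bound by neurogenic basic helix-loop-helix factors such as NEUROD, in 846 members (24.5%, interval 23.1 to 26.0), against 25.5% of later-intron regions, 24.2% of intergenic regions and 9.14% of windows at starts. The E-box CAGCTG was found in 21.6% of members, 20.5% of later-intron regions, 19.4% of intergenic regions and 12.3% of starts. AP-1 (TGANTCA), the site of FOS and JUN, was found in 382 members (11.1%, interval 10.0 to 12.2), against 11.8% in later introns, 11.1% in intergenic regions and 3.93% at starts. Intervals for the AP-1 and CAGATG matches overlapped among first introns, later introns and intergenic regions.

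**Figure D3:**
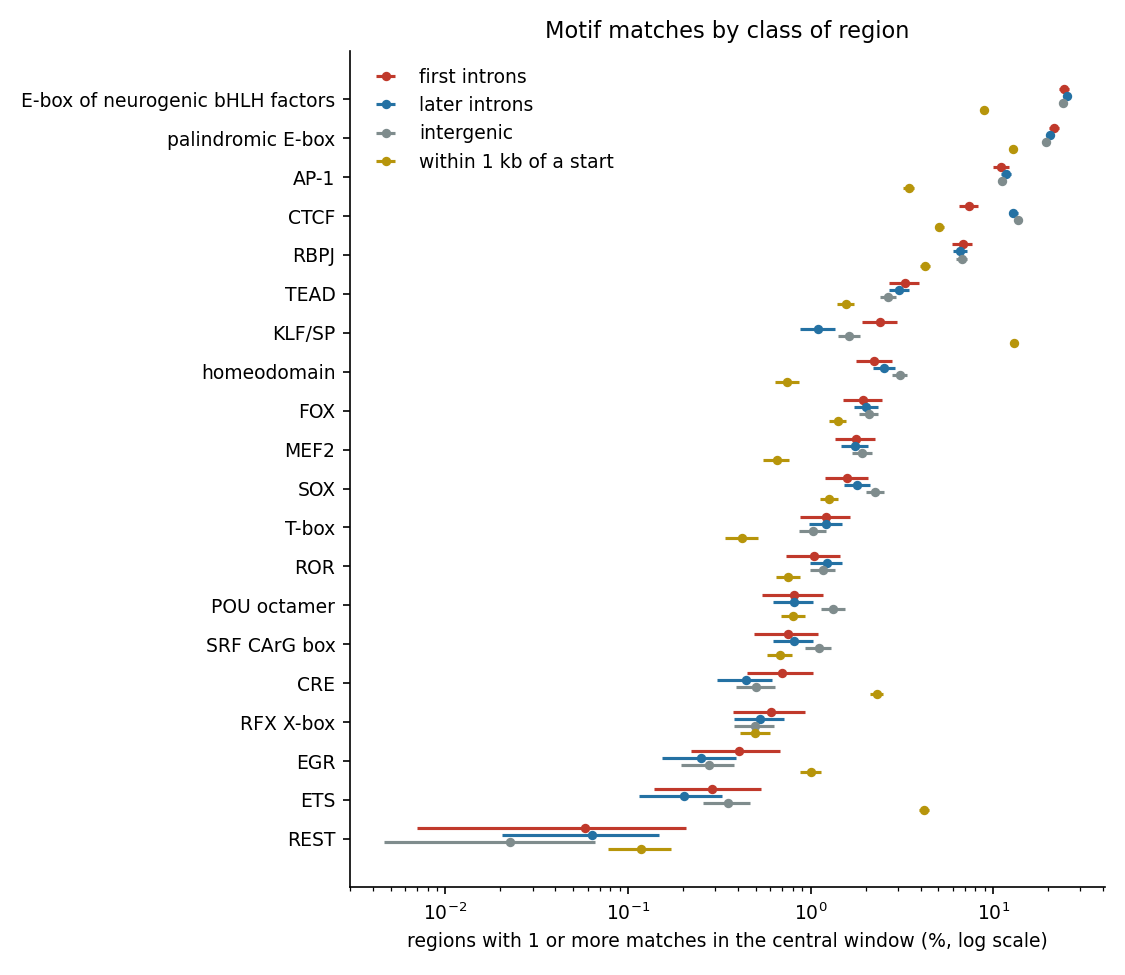
Percent of regions with at least 1 match of each motif in the central 200 bp (log scale), with bars for exact 95% intervals. The classes are first introns, later introns, intergenic regions and regions within 1 kb of a start. Motifs without a match in members are left out. CTCF stands apart, at 7.38% of members against 12.9% of later-intron regions, and KLF/SP lies to the other side, at 2.40% against 1.10%. Regions within 1 kb of a start had 5.07% for CTCF and 12.95% for KLF/SP.

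A pair of motifs separated first from later introns in opposite directions. KLF/SP boxes (GGGGCGGGG), the GC boxes of SP and Krüppel-like factors, were found in 83 members (2.40%, interval 1.92 to 2.97), against 1.10% of later-intron regions (0.88 to 1.35), 1.63% of intergenic regions and 12.4% of starts. CTCF (CCNCNAGNNGGC), the zinc-finger protein that anchors chromatin loops, had matches in 255 members (7.38%, interval 6.53 to 8.30). Later introns had 12.9% (12.2 to 13.6), intergenic regions 13.7% (13.1 to 14.3) and starts 2.12%. First introns thus held a CTCF match less often than later introns and intergenic regions, beyond counting error. Accessible regions within 1 kb of a start had a lower share still, at 5.07% (4.79 to 5.36). KLF/SP boxes were found in 12.95% of those regions.

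The intervals of the other motifs overlapped between first and later introns. These motifs included RBPJ, the DNA-binding partner of Notch (GTGGGAA, 6.80% of members, 6.60% of later-intron regions and 3.79% of starts), TEAD (ACATTCC, 3.27%, 3.04% and 2.10%) and MEF2 (61 members, 1.77%, against 1.75% and 1.21%). The homeodomain core TAATTA was found in 2.23% of members (1.76 to 2.78), 2.52% of later-intron regions, 3.09% of intergenic regions (2.8 to 3.39) and 2.26% of starts. The RFX X-box (GTTNCCNNGGNAAC) was found in 21 members (0.608%, 0.377 to 0.928), 0.530% of later-intron regions and 0.301% of starts. REST (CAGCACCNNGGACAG) had matches in 2 members, 5 later-intron regions, 3 intergenic regions and 0.0365% of starts. The palindromic NFI site (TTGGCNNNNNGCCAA) was found in 0 members, with an exact upper bound of 0.107%, in 7 later-intron regions, 13 intergenic regions and 0.0182% of starts.

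The lower share of CTCF matches held at most distances and heights. At 1 to 2 kb it was 5.33% in first introns, against 22.8% in later introns and 13.9% in intergenic sequence. The later-intron value there rests on 13 of 57 regions (12.7 to 35.8). At 5 to 10 kb the share was 7.18% in first introns, against 21.1% in later introns and 18.5% in intergenic sequence. Beyond 200 kb the classes no longer stood apart, with 10.2% in first introns (6.56 to 14.9), 9.64% in later introns and 7.64% in intergenic sequence. Without introns that hold other starts, 8 of 89 members there had a match (8.99%, 3.96 to 16.95), against 9.46% of later-intron regions. Regions were also given a percentile rank of height over all shared regions in each mouse. The mean of these ranks was cut into 5 classes of equal width, which differ in size. The share among members was 3.12% in the lowest class and 20.2% in the highest, against 4.46% and 28.1% of later-intron regions and 5.23% and 26.8% of intergenic regions. In the 3 middle classes, intervals of first and later introns did not overlap. At a mean rank of 60 to 80 the shares were 12.5% of members (9.98 to 15.4) and 23.5% of later-intron regions (21.4 to 25.7).

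**Figure D4:**
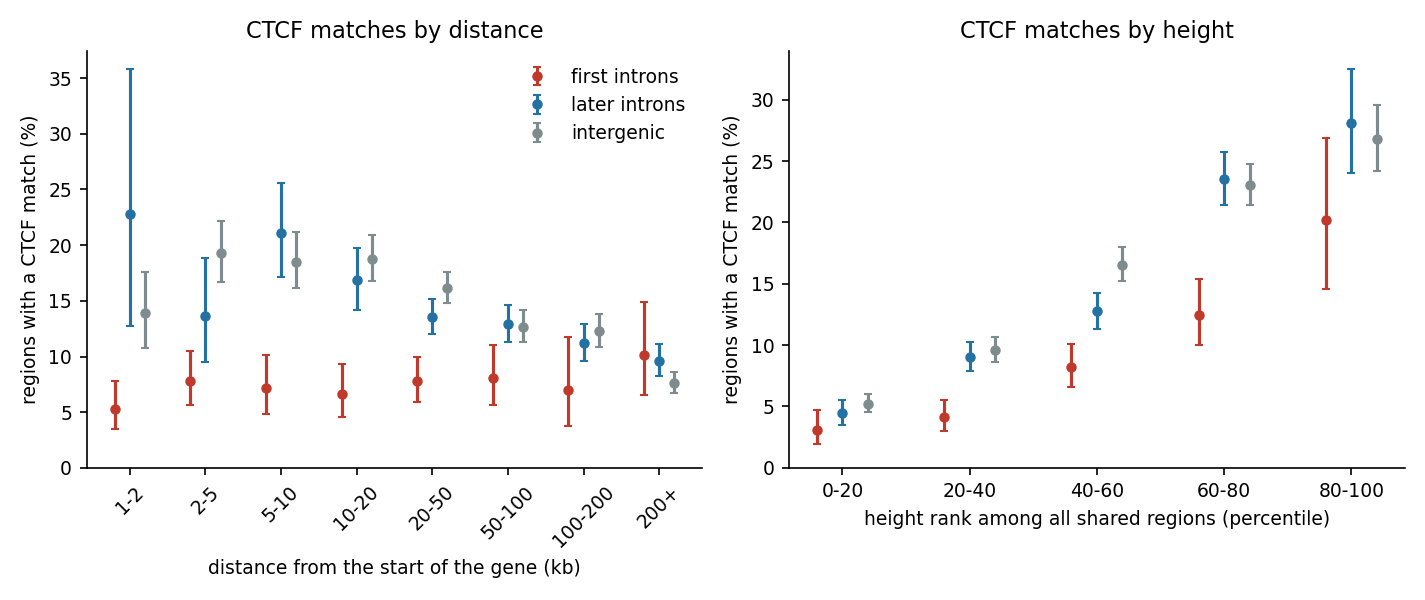
Percent of regions with a CTCF match, for first introns, later introns and intergenic regions, with bars for exact 95% intervals. Left, by distance from the start of the gene in kb, and right, by the mean over both mice of the percentile rank of height among all shared regions. Members lie lowest in every distance class below 200 kb and in every class of height.

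The difference was also present inside the same genes. In the 877 genes with regions in the first and in a later intron, 6.15% of 1790 members had a CTCF match (5.08 to 7.36), against 11.5% of 2444 later-intron regions (10.3 to 12.8). Members of hosts with an open promoter, that is with a promoter peak in both mice, had a match in 6.91% of 3055 cases (6.03 to 7.86). Those of hosts without one had it in 10.8% of 408 cases (7.95 to 14.2). The match lay on the strand of the gene in 125 cases and on the opposite strand in 132 cases (48.6% on the strand of the gene, 42.4 to 54.9), so neither strand was favoured beyond counting error.

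Members with a CTCF match were higher and differed between the mice. Their median heights were 2.17 and 1.21, against 1.18 and 0.999 in members without one. The centred log2 ratio of replicate 2 over replicate 1 was -0.49 with a match (SD 0.50) and 0.13 without (SD 0.47), and it was below 0 in 208 of 255 members with a match (81.6%) and in 38.8% of the others. Later-intron regions showed the same shift, with -0.52 and 81.9% among those with a match, as did intergenic regions, with -0.56 and 81.7%. The shift at CTCF matches was thus found in each of these classes. With 1 library per mouse, animal and library cannot be told apart here.

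Footprints covered CTCF matches nearly always and AP-1 matches rarely. A match counted as covered when at least 50% of its bases lay in a footprint. Of 257 CTCF matches in members, 90.7% were covered in replicate 1 and 89.5% in replicate 2, against 94.7% and 92.2% in later introns. RFX X-boxes followed with 71.4% in each mouse (21 matches), then KLF/SP boxes with 63.3% and 55.6% (90 matches), CAGCTG with 33.3% and 31.4% (861 matches) and CAGATG with 32.8% and 32.3% (989 matches). AP-1 had 12.1% in each mouse (421 matches), MEF2 11.3% and 9.68% (62 matches) and TAATTA 6.49% and 9.09% (77 matches). Footprints covered 20.2% and 16.6% of all bases of these windows, which is above the shares for AP-1, MEF2 and TAATTA. Motifs of different length are not equally easy to cover, and that was not tested.

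Of 14309 protein-coding genes with eligible sequence in the first intron, 2032 held a member (14.2%). A single member was found in 1324 of them, 2 in 397, 3 in 165, 4 in 75, and 5 or more in 71. The 66 members with more than 1 host (1.91%) count for each host. Hosts had long first introns, with a median of 29.6 kb, against 4.93 kb in genes without a member. The share of genes with a member was 1.504% for under 1 kb of eligible sequence, 4.35% for 1 to 5 kb, 14.6% for 5 to 20 kb, 39.97% for 20 to 100 kb and 67.3% for 100 kb or more.

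Genes with an open promoter held members more often than genes without one in each class of intron length. Among 9349 genes with a promoter peak in both mice, 1730 (18.5%) had a member, at 16.3 members per Mb. Among the 4960 others, 302 (6.09%) had one, at 10.3 per Mb. For 5 to 20 kb of eligible sequence the shares were 16.3% with an open promoter and 10.3% without, at 20.1 and 12.6 members per Mb. For 20 to 100 kb they were 42.1% and 29.5%, at 17.0 and 11.04 per Mb, and for 100 kb or more 71.5% and 38.0%. The densities over all lengths without introns that hold other starts were 15.8 and 11.4 per Mb.

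Members had a neighbour within 1 kb more often than later-intron regions did, while the median distance to the nearest region of the same class was 26.7 kb for members and 25.8 kb for later-intron regions. Another member lay within 1 kb of 573 members (16.6%), against 873 later-intron regions (11.01%) and 16.6% of intergenic regions. Rows of 1 list that overlapped each other accounted for 79 members (2.29%), 63 later-intron regions (0.795%) and 158 intergenic regions (1.18%). Such rows count separately in the numbers of members per gene, for example in Maml3 and Rbfox3. Rows that adjoin without overlapping also count as neighbours within 1 kb. Those of Nrp2 had the same height in replicate 2 (1.217), as did those of Kif1a (1.425). How many neighbours are of this kind was not counted.

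The genes with the most members were led by Gm20388, a gene model on chromosome 8 whose first intron of 4384 kb holds the starts of 72 other protein-coding genes. It accounts for 133 members, and its count describes that stretch of the chromosome more than 1 gene. In all, 318 members (9.20%) lay only in introns that hold another start. Gse1, with 10 members, lies inside the same stretch. The next was Asic2, an acid-sensing ion channel gene on chromosome 11, with 20 members over a first intron of 996 kb, from 1.46 to 994 kb. Their heights ranged from 0.401 to 3.38 (median 1.02) in replicate 1 and from 0.314 to 2.33 (median 0.934) in replicate 2, and 3 of them had a CTCF match. No member lay between 1.46 and 167 kb, so the longest gap lay next to the start.

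Ntm, which encodes the adhesion protein neurotrimin, had 14 members in 551 kb, with its 3 CTCF matches together at 302 to 319.7 kb. The furthest of these was its highest member, at 3.53 and 1.98. Maml3, a Notch coactivator gene, had 13 members in 247 kb and none with a CTCF match. Its highest, at 58.0 kb, reached 4.38 and 2.81, and its members averaged higher than those of Ntm or Asic2, with medians of 1.58 and 1.68. Kcnip1, the gene of a protein that binds Kv4 potassium channels, had 10 members although no promoter peak was shared by the mice. Its intron holds 1 other start, as does that of Asic2. The members of Kcnip1 lay 60.2 to 307 kb from the start, with heights of 0.705 to 4.40 in replicate 1 and 0.583 to 1.94 in replicate 2. Upp2, a uridine phosphorylase gene, had 10 members, of which the 1 with a CTCF match, at 114 kb, had 2.85 and 0.628, a centred log2 ratio of -1.79.

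**Figure D5:**
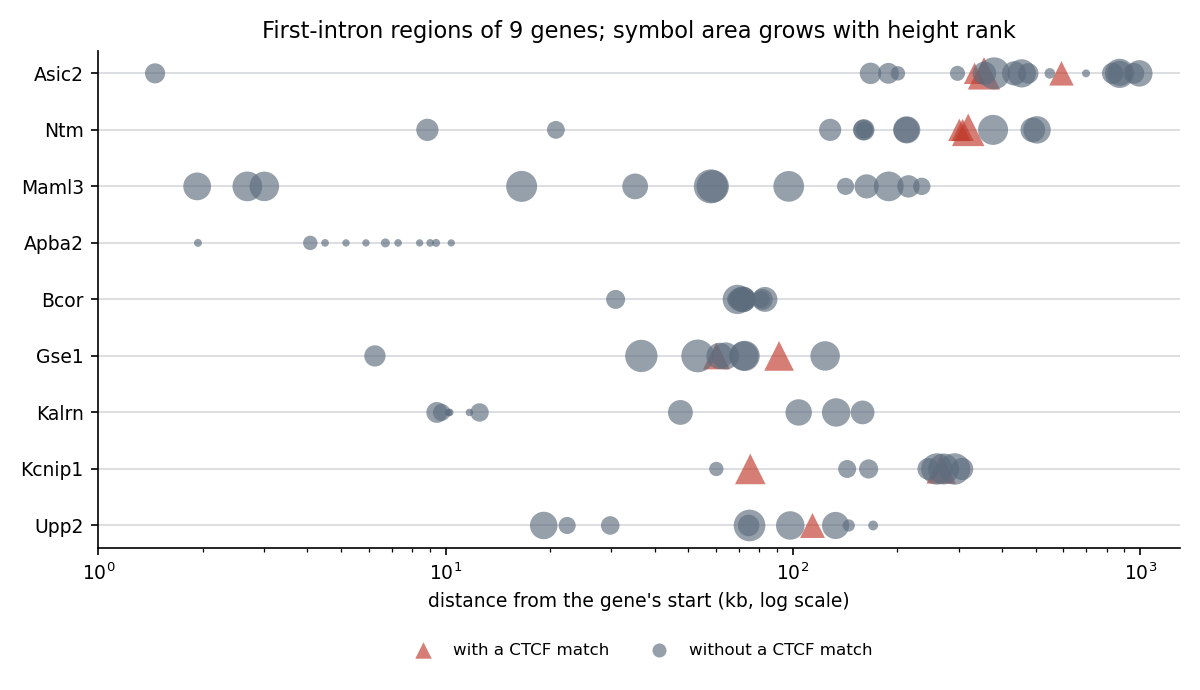
Positions of the members of 9 genes along the first intron, as distance from the start of the gene in kb on a log scale, with symbol area growing with the height rank and triangles for members with a CTCF match. Apba2 and Bcor have their members packed into a short stretch, while those of Asic2 are spread up to 994 kb.

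A pair of genes had dense clusters instead. All 11 members of Apba2, which encodes the APP-binding adaptor MINT2, lay within 8.45 kb, at 1.94 to 10.4 kb from the start. They were low, with heights of 0.195 to 0.778 in replicate 1 and 0.135 to 0.527 in replicate 2. Their mean percentile ranks among all shared regions lay between 0.0847 and 12. The rows at 9.025 and 9.385 kb overlap each other and had the same height in replicate 2 (0.3085). In Bcor, an X-linked corepressor gene, 10 of the 11 members lay at 68.4 to 83.0 kb from the start. Their heights were 0.803 to 2.06 in replicate 1 and 0.612 to 1.45 in replicate 2, above all those of Apba2. The rows of Bcor at 71.81 and 71.88 kb overlap each other, with the same height in replicate 2 (1.105). Kalrn, the gene of a guanine nucleotide exchange factor of dendritic spines, had 10 members, of which the 3 at 10.2 to 11.7 kb were as low as those of Apba2, with 0.268 to 0.359 in replicate 1. Those at 10.2 and 10.27 kb overlap each other, with the same height in replicate 2 (0.2805).

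The highest members, by the mean of the height ranks of both mice, were found in genes of various roles. Mxi1 led with 13.0 and 8.51, at 3.80 kb from the start, and a Gm20388 member had 10.9 and 7.64. Nuak1 had 11.6 and 6.04 at 2.38 kb. Then came Nr1d1, which encodes a circadian transcriptional repressor, with 8.49 and 7.19 at 1.38 kb, and Cdkn1a, which encodes the cell cycle inhibitor p21, with 9.95 and 5.34 at 4.63 kb. All of these but the Gm20388 member lay within 5 kb of the start. Aim2, a cytosolic DNA sensor gene, had 8.99 and 5.25 further in, at 39.4 kb, in an intron that holds another start. Tmem189 had 13.5 and 4.67, the highest value of replicate 1, with a CTCF match and a centred log2 ratio of -1.13. The intron of Tmem189 also holds another start. Zfp516, a zinc-finger protein gene, had 8.87 and 5.18, Mnt, a MAX-binding repressor gene like Mxi1, had 7.47 and 5.63, and a second Gm20388 member had 9.02 and 4.76. Among the 100 highest members, 42 lay within 5 kb of the start, 31 were CpG-rich and 21 had a CTCF match.

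Among the 1371 members above the median height in both mice, those furthest below the median ratio included members in A430078G23Rik (4.79 and 1.18, a log2 ratio of -1.63) and Kcnip1 (4.40 and 1.16, -1.53), each with a CTCF match. The others on that side were in Bcar3 (6.96 and 1.89, -1.49), Gm20388 (4.78 and 1.36, -1.42) and Syt16 (7.13 and 2.05, -1.41). On the other side, a member in Aida was higher in replicate 2 (3.95 and 6.64, 1.15). It was followed by members in Celf4 (1.46 and 2.27, 1.03), Peg3, an imprinted zinc-finger gene (1.67 and 2.59, 1.03), Kctd21 (1.48 and 2.30, 1.03) and Erf, an ETS repressor gene (1.48 and 2.28, 1.02). The deviations below the median were larger than those above it.

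Gene lists of cortical cell types and neuronal functions differed in how many genes held a member. The background over all protein-coding genes was 14.2% and 15.3 members per Mb, and the median eligible sequence differs between lists. Regulators of RNA splicing had members in 9 of 13 genes with eligible sequence (69.2%, 26 members, 23.1 per Mb), and voltage-gated channels in 11 of 18 (61.1%, 33 members, 12.8 per Mb). Both lists consist of genes with long first introns, with medians of 69.0 and 66.2 kb of eligible sequence, and per Mb the channel genes were not above the background. Rbfox3, which encodes the neuronal nuclear protein NeuN, had 7 members with heights from 0.632 to 2.63 in replicate 1 and from 0.6002 to 2.02 in replicate 2. Rbfox1, its splicing relative, had 5, of which the highest, at 134 kb with a CTCF match, reached 5.55 and 3.11. The potassium channel gene Kcnq3 had 7 members, of which the highest had 3.22 and 2.85 at 47.3 kb.

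Synaptic adhesion and scaffold genes held a member in 8 of 17 cases but at 4.13 per Mb, the lowest density of the lists with any member, over 3.15 Mb of eligible sequence. Lsamp, an adhesion gene with a first intron of 801273 bp, had 3 members, the nearest at 482 kb from the start. Nrxn3, a presynaptic neurexin gene, had 3, with 3.83 and 2.13 for the highest. Glutamate receptor genes held members in 5 of 12 cases (13.3 per Mb), with 4 members in the kainate receptor gene Grik4 and 3 in the metabotropic receptor gene Grm7. GABA-A receptor genes held them in 2 of 8 cases, with 1 member in Gabrd.

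Excitatory neuron genes had members in 5 of 13 cases (32.4 per Mb), and interneuron genes in 0 of 6. The density of excitatory neuron genes did not stand apart from the lists of other tissues. Liver genes had 40.3 per Mb (1 of 7 genes, over 0.0496 Mb) and skeletal muscle genes 31.95 per Mb (2 of 13, over 0.0626 Mb). Rorb, a nuclear receptor gene of cortical layers, had 3 members of at most 0.985 and 1.03, and Camk2a, a kinase gene of excitatory synapses, had 2, with 2.18 and 2.19 at 8.88 kb and 2.44 and 1.498 at 5.06 kb. Astrocyte genes held them in 2 of 9 cases. Aldh1l1, a folate enzyme gene used as an astrocyte marker, had 5 members, and 3 of them were high, at 6.09 and 2.42, 5.04 and 2.59, and 5.80 and 2.21. The glutamate transporter gene Slc1a2 had 1, at 1.04 and 1.14. In the oligodendrocyte lineage, Cspg4, which encodes the NG2 proteoglycan, had 2 members without a shared promoter peak, and Sox8 had 1. The purinergic receptor gene P2ry12 held the single microglial member (2.64 and 1.43), also without a shared promoter peak. Vessel genes had 3 members, 2 in Erg and 1 in Pecam1, none above 1.05 in replicate 1 or 1.1 in replicate 2.

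Immediate early genes, the first to be transcribed in stimulated neurons, had members in 3 of 10 cases and 81.3 per Mb, the highest density of the lists, over 0.0861 Mb only. All 15 genes of the list had a promoter peak in both mice, and their median eligible sequence was 2.46 kb. Among all genes with an open promoter and 1 to 5 kb of eligible sequence, the density was 28.4 members per Mb. Nr4a2, an orphan nuclear receptor gene, had 4, but 3 of these rows overlapped 1 peak of replicate 2 (height 1.04). Nr4a3 had 2, at 0.748 and 1.00 and at 0.833 and 0.550. Housekeeping genes had members in 0 of 7 cases, over 0.0341 Mb. Among the lists of other tissues, the liver regulator gene Hnf4a had 2 members without a shared promoter peak, and they were high, with 7.86 and 3.23 at 28.3 kb and 3.72 and 1.39 at 25.3 kb. Of the muscle genes, Actn2 had 1 member at 1.86 and 1.76. Mb had 1 at 0.949 and 0.825, without a shared promoter peak and in an intron that holds another start.

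On the X chromosome the 73 members had median heights of 0.857 and 0.673, against 1.23 and 1.02 for the 3382 members on autosomes. Regions in later introns showed a similar difference, with 0.857 and 0.617 on the X chromosome and 1.28 and 0.999 on autosomes.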

How the data were processed

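DNase-seq was done on 2 libraries, 1 per mouse, and each was processed on mm10 without pooling, per the labels and the deposited read-me text. Which aligner and peak caller were used is not given in the sources used here. The authors deposited per library 2 peak lists, footprint positions, and a false discovery rate for the cut rate along the genome. Peak height is a signal value of the authors whose normalization is not stated. The deposited rates, used as given, list runs of positions under 0.05, and every member held a position under 0.001 in each mouse. The deposited footprint file repeats a p-value threshold of 0.01 in each row, so only positions were used.

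Members were taken from the shorter lists with GENCODE M21 on GRCm38, whose longest transcript was the one of largest genomic span. Each base of the genome was put in 1 class by the same rule, which gave the eligible sequence. The height of a region in replicate 2 is that of its highest overlapping peak. Log2 ratios were centred on the median of all shared regions. Python 3.11.15, numpy 2.4.6, pandas 2.3.3, scipy 1.17.1 and matplotlib 3.10.9 were used, and the code was tested on simulated data. The sequence and annotation fit each other, with ATG at 59215 of 59255 annotated start codons. Members and lists were chosen with earlier results of these data known. The text names the 10 genes with the most members, the 10 highest members, the 5 members furthest to each side in height ratio, and up to 2 genes of each list with the most members, save some that are not reported here. Alternatives covered the library that gives the rows, the transcript, the overlap, the list, the height, the distance, the exon rule, each library alone and, added after seeing the data, introns that hold other starts.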

Additional observations from a re-analysis of the deposited data

How the results depend on the processing

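Which peaks counted moved most values. The number of members was 3455, and it was 7475 with the longer lists, 1569 with peaks above the median height of their list, and 5236 to 5398 in single libraries. The density in first over that in later introns was 1.23, and it stayed above 1 in all alternatives: 1.24 with the transcript of largest spliced length, 1.17 with an overlap of 50% of both peaks, 1.27 with the longer lists, 1.09 beyond 2 kb from starts, 1.28 with no base in an exon, and 1.21 without introns that hold other starts, the last chosen after seeing the data. The exon rule removed regions but left the eligible sequence unchanged, so the value of 1.28 does not rest on matching sequence. The density over that upstream at 5 to 20 kb was 0.794, and 0.752 with the spliced transcript, 0.735 with 50% overlap, 0.636 above the median height, 0.783 beyond 2 kb, 0.783 without introns that hold other starts and 0.960 to 0.974 in single libraries. It turned round with the longer lists, at 1.04, and the cause was not tested. Median height over that of later introns, as the mean of the mice, was 0.987, and 1.03 with the longer lists, 0.955 above the median height and 0.994 to 1.04 in single libraries, on either side of 1.

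The share of members with a CTCF match was 7.38%, and 6.76% with the spliced transcript, 8.94% with 50% overlap, 4.67% with the longer lists, 11.2% above the median height, 7.91% beyond 2 kb, 6.95% without introns that hold other starts and 5.35 to 5.86% in single libraries. Under each of these alternatives it stayed below the share in later introns, for example 4.67% against 7.97% with the longer lists and 11.2% against 18.7% above the median height. The share of genes with a member was 14.2%, and 13.2%, 12.3%, 23.0% and 7.73% with the spliced transcript, 50% overlap, the longer lists and the median height, and 17.5 to 18.01% in single libraries. Footprints per member were 2.73, and 2.88 with the rows of replicate 2, 2.94 with 50% overlap, 2.24 with the longer lists, 3.36 above the median height and 2.38 to 2.43 in single libraries. All other values under these alternatives moved by less than the spread between the libraries, or, for the number of members, by less than 1.5 times. No paired analysis was possible because the 2 libraries form a single group. With 1 library per mouse and depth unknown, no share of reads and no interval over animals could be given.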
